A study of Mus musculus with 18 samples.

Results

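Expression in the dermis was compared between K14NICDER transgenic mice and wild-type mice, on 3 arrays per group, which are 6 of the 18 arrays of the study. The transgene places the Notch intracellular domain, fused to an oestrogen receptor domain that 4OHT (4-hydroxytamoxifen) activates, under the keratin 14 promoter. That promoter drives expression in basal keratinocytes and not in fibroblasts, so the comparison addresses what the dermal fraction shows when Notch is active in the epithelium above and around it. Both groups, controls included, were female C57Bl6xCBA F1 mice, 7 weeks old when treatment began, and 4OHT was given to all of them for 14 days. The other 12 arrays hold epidermis and whole skin of the same genotypes, again 3 per group. Nothing in the labels says that the replicates, or the tissues of a given number, came from separate animals, so the p-values speak only of variation among these samples, and it may be technical. Values are MAS5 signals on the log2 scale as deposited, differences are transgenic minus wild type on that scale with the standard error from limma, and values by array are given in the order replicate 1, 2 and 3. Probe sets named 18193 genes, of which 13739 passed a filter on low values and were tested.

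Notch receptors are cleaved when a ligand on a neighbouring cell binds them, and the freed intracellular domain acts with the DNA-binding protein RBPJ in the nucleus. In skin the pathway is known for its part in keratinocyte differentiation and in the hair follicle. The growing follicle extends deep into the dermis, and its inner root sheath, a sleeve of keratinised layers around the hair shaft, is built from its own set of keratins and from trichohyalin.

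Markers of fibroblasts and of differentiated keratinocytes set wild-type dermis apart from epidermis, while most basal keratinocyte markers did not. Epithelial RNA was present on all 6 dermis arrays. Of 38 tested genes of fibroblasts and matrix, 35 were higher on every wild-type dermis array than on every wild-type epidermis array. Of 33 genes of differentiated keratinocytes, 25 were lower on every one. Over all 13739 genes tested, 3189 were higher and 2303 lower in this way. Of 13 basal keratinocyte genes, 4 were lower and 1 was higher. Their median level was 10.48 in wild-type dermis and 10.16 in wild-type epidermis. Krt14, the keratin of the basal layer whose promoter drives the transgene, read 11.46, 11.51 and 11.39 on the wild-type and 11.25, 11.03 and 11.10 on the transgenic dermis arrays. The summed linear signal of the 33 differentiation genes ran from 20681 to 35911 on wild-type arrays and from 14016 to 25078 on transgenic arrays, and that of 13 basal keratinocyte genes from 16033 to 18362 and from 12071 to 14082. In bulk tissue, fewer cells of a type and less RNA per cell cannot be told apart.

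The 3 transgenic dermis arrays differed among themselves more than the wild-type arrays did. Over genes, the standard deviation had a median of 0.540 among transgenic and 0.329 among wild-type dermis arrays. Transgenic replicates 1 and 3 were the least alike of the 15 pairs, with a correlation of 0.809 across genes. Replicate 1 correlated with wild-type replicate 3 at 0.943 and with transgenic replicate 2 at 0.887. For 59.8% of genes it lay farther from the mean of the other 2 of its group than those 2 lay from each other. That share was 47.7% for replicate 3 and 28.3% for replicate 2 (42.7% to 47.7% in wild type). Replicate 3 had the lowest correlations with the wild-type arrays, 0.849 to 0.869, and replicate 2 correlated better with wild-type replicate 1 (0.929) than with transgenic replicate 3 (0.894). The top 1% of probe sets held 16.7%, 26.8% and 32% of the summed signal on transgenic replicates 1, 2 and 3, against 19.2% to 25.4% on wild-type arrays, and 9.36%, 5.41% and 4.05% of their values were below 0. Replicates 1 and 3 thus lay at opposite ends of both measures, and the part of these array properties in the results was not tested.

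In all, 5 genes passed the main test, which is 0.0364% of the genes tested. Krt73, Chodl and Gjb2 rose in transgenic dermis (0.0218% of genes) and Mt4 and Il20ra fell (0.0146%). At an unadjusted p under 0.05 there were 700 genes, 5.09% of those tested, 232 higher (1.69%) and 468 lower (3.41%). The main test shares its estimate of each gene's spread with the epidermis and whole-skin arrays, and a second fit of the 6 dermis arrays alone passed 9 genes (0.0655%), each higher in transgenic dermis: Krt25, Krt27, Krt71, Tchh, Prr9, Saa3, Serpina3n, Tnc and again Gjb2. In that fit 4.33% of genes had an unadjusted p under 0.05. Both tests together gave 13 genes. The 3 transgenic arrays lay all above the wild-type arrays for 537 genes (3.91%) and all below them for 732 (5.33%), 9.24% together. Counts of separated genes in the gene lists below are to be read beside these shares. Calls in the main test turned on single arrays: none was left without wild-type replicate 1 (441 genes at an unadjusted p under 0.05), wild-type replicate 2 (361 genes) or transgenic replicate 2 (550 genes), Mt4 alone without wild-type replicate 3, and Krt73, Mt4 and Il20ra without transgenic replicate 3. Chodl (adjusted p = 0.123) and Gjb2 (0.104) did not pass without that array, while Cxcl13 did. Without transgenic replicate 1 the count was 467 (3.40%), 122 higher (0.888%) and 345 lower (2.51%).

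Keratins of the inner root sheath and Saa3, described further on, had the largest differences among the 13 called genes. Krt25 and Krt27 are type I and Krt71 and Krt73 type II keratins, which pair with each other in the filaments of that sheath. Their promoters are shown because these 4 genes lie in 2 clusters, on chromosomes 11 and 15, and had the 4 largest differences of the list. Each line holds the 150 bases before the start site in the RefSeq annotation of GRCm38.p6, on the gene's own strand, with the hexamer TATAAA in capitals.
Krt25 at chr11:99322952-99323101, minus strand: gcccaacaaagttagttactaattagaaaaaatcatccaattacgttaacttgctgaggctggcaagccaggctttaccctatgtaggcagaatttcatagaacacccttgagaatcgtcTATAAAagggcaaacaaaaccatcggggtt
Krt27 at chr11:99351119-99351268, minus strand: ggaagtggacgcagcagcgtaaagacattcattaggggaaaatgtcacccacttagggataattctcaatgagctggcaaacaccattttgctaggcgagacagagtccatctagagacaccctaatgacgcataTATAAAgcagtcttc
Krt71 at chr15:101743098-101743247, minus strand: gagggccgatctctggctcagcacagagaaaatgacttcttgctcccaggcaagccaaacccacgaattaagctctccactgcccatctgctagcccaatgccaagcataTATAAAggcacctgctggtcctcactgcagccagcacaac
Krt73 at chr15:101802361-101802510, minus strand: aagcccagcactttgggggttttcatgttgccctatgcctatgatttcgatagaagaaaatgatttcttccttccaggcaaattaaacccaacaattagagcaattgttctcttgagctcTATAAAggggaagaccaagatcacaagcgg
The hexamer began 30 bases before the start site in Krt25 and Krt73, 15 in Krt27 and 40 in Krt71. On either strand it occurs in 7.57% of 32851 promoters of that length. Neither CTTTGA, the core bound by LEF and TCF factors (7.93% of promoters), nor TGGGAA, the core bound by RBPJ (13.1%), was found on either strand of these 4 windows. Over the 14 promoters of the 13 called genes, TATAAA was in 7, CTTTGA in 2 and TGGGAA in 3. A match is a description of the letters and not of a bound site.

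Krt73 read -0.42, -0.77 and -0.99 on the wild-type arrays and 7.09, 4.73 and 5.36 on the transgenic arrays. All 3 wild-type values are near the bottom of the scale, where MAS5 is imprecise, and all 3 transgenic values lie at least several units above them. The difference was 6.45 ± 0.97 (limma, adjusted p = 0.0186), and with 16 added on the linear scale it was 2.11 (adjusted p = 0.0366). Under a filter on the mean of the dermis arrays Krt73 was not tested. It was also called in epidermis, at 4.39 (adjusted p = 0.0133), and in whole skin, at 4.26 (adjusted p = 1.01e-05).

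Krt25 read 1.62, 1.34 and 1.98 on wild-type and 10.26, 10.38 and 9.66 on transgenic dermis, a difference of 8.45. The wild-type values lie below 3.15, the level under which genes were not tested, so the exact size means little, and with 16 added on the linear scale the difference was 5.86. Here transgenic replicate 1 lay between the other transgenic arrays. The 2 tests disagreed on this gene, with adjusted p = 2.28e-05 from the dermis arrays alone (standard error 0.36) and adjusted p = 0.999 in the main test (standard error 4.45). Whole-skin arrays weigh most in the main test, and on them Krt25 read -1.44, 6.04 and -0.16 in wild type and 9.02, 7.79 and -1.43 in transgenic skin. High and low values thus occurred in both genotypes of whole skin, whereas in dermis the groups did not overlap.

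Krt27 and Krt71 showed the same layout. Krt27 read -0.91, 1.69 and 1.96 against 9.77, 9.56 and 8.19, a difference of 8.26 (adjusted p = 0.00633 in dermis alone, 0.473 in the main test). For Krt71 the values were 1.12, 1.79 and 1.61 against 7.66, 7.79 and 6.43, a difference of 5.79 (adjusted p = 0.00633 and 0.937). Both genes were low on every wild-type and high on every transgenic dermis array, and both were high on whole-skin transgenic replicates 1 and 2 (8.60 and 6.59 for Krt27, 6.71 and 5.71 for Krt71) but not on replicate 3 (2.95 and 0.98). Wild-type whole skin read 3.12, 5.85 and 2.51 for Krt27 and -0.00, 3.22 and 2.46 for Krt71, so the genotypes overlapped there.

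Tchh encodes trichohyalin, the granule protein that hardens the inner root sheath. It read 5.21, 4.84 and 5.81 on wild-type and 9.58, 10.38 and 9.44 on transgenic arrays, a difference of 4.51 (adjusted p = 0.00316 in dermis alone, 0.374 in the main test). Its relative Tchhl1 differed by 4.84 and Krt28, another sheath keratin, by 1.84, both with no overlap but neither called in either test. Prr9, which codes for a proline-rich protein, went from 4.80, 5.02 and 4.30 to 9.72, 8.61 and 8.28, a difference of 4.16 (adjusted p = 0.00826 in dermis alone, 0.648 in the main test).

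**Figure D1:**
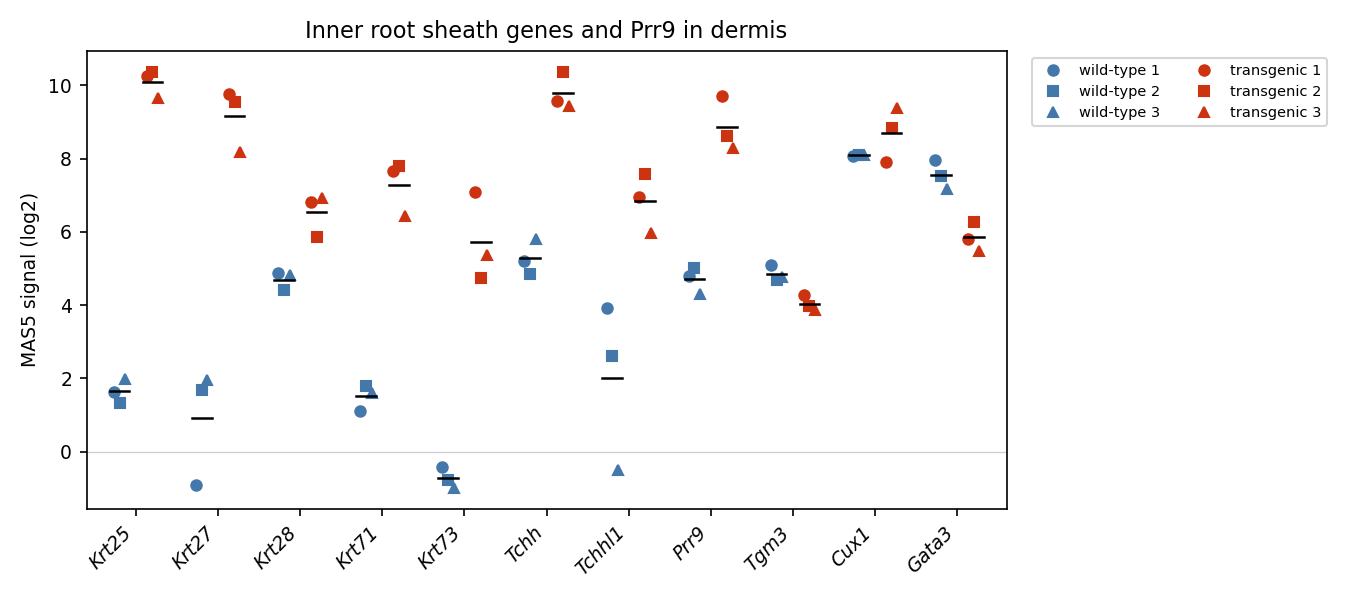
MAS5 signal (log2) of the 10 tested inner root sheath genes and of Prr9 on each dermis array, blue for wild type and red for transgenic, with a bar at each group mean. The sheath keratins, Tchh, Tchhl1 and Prr9 lie higher on all 3 transgenic arrays, Tgm3 and Gata3 lie lower on all 3, and Cux1 overlaps between the groups.

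Of 14 listed inner root sheath genes, 13 were on the array and 10 passed the filter, of which 1 was called in the main test and 4 with the dermis arrays alone. Krt25, Krt27, Krt71, Krt73 and Tchhl1 have a mean below the filter level in wild-type dermis and reached it through other arrays, among them the transgenic dermis arrays where they are high, so a median or a count over the 10 supports nothing. For the record, the median deviation from the wild-type mean was 4.62, 5.27 and 4.06 on the 3 transgenic arrays, and 7 of the 10 lay above and 2 below on all 3. The members below were Tgm3, a transglutaminase that also serves the cornified layer, at -0.82, and Gata3, a transcription factor of the sheath that T cells also express. Gata3 read 7.97, 7.52 and 7.17 against 5.82, 6.27 and 5.49, a difference of -1.69 ± 0.40 (adjusted p = 0.297 in the main test and 0.315 in dermis alone).

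Lists of other follicle compartments follow, with no comparison drawn to the sheath list. Outer root sheath and companion layer genes had a median of -0.05 over 12, with 0 called. Of these, Krt16 and Krt6a, described below, were above on all 3 transgenic arrays. Krt14 and Krt5 were below at -0.33 and -0.59, and Krt6b overlapped at 3.18. Of 29 listed hair shaft genes 23 were on the array and 9, mostly hair keratins, passed the filter. Those 9 had a median difference of 0.27 and none was called. Krt36 alone among them lay above on all 3 transgenic arrays (3.19, 3.65 and 3.03 against 3.73, 4.23 and 4.36). Regulators of the hair matrix had a median of 0.21 over 20 genes, the dermal papilla, the mesenchymal signalling centre of the follicle, 0.12 over 19, and follicle stem cells -0.04 over 19, with no gene called in any of these lists. In the papilla list Bmp4, a ligand of the BMP pathway, read 6.91, 6.93 and 7.09 against 6.19, 5.85 and 5.19 (-1.23 ± 0.56, adjusted p = 0.966). Cd34, which marks bulge stem cells and also vessels, overlapped between groups at -1.17.

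**Figure D2:**
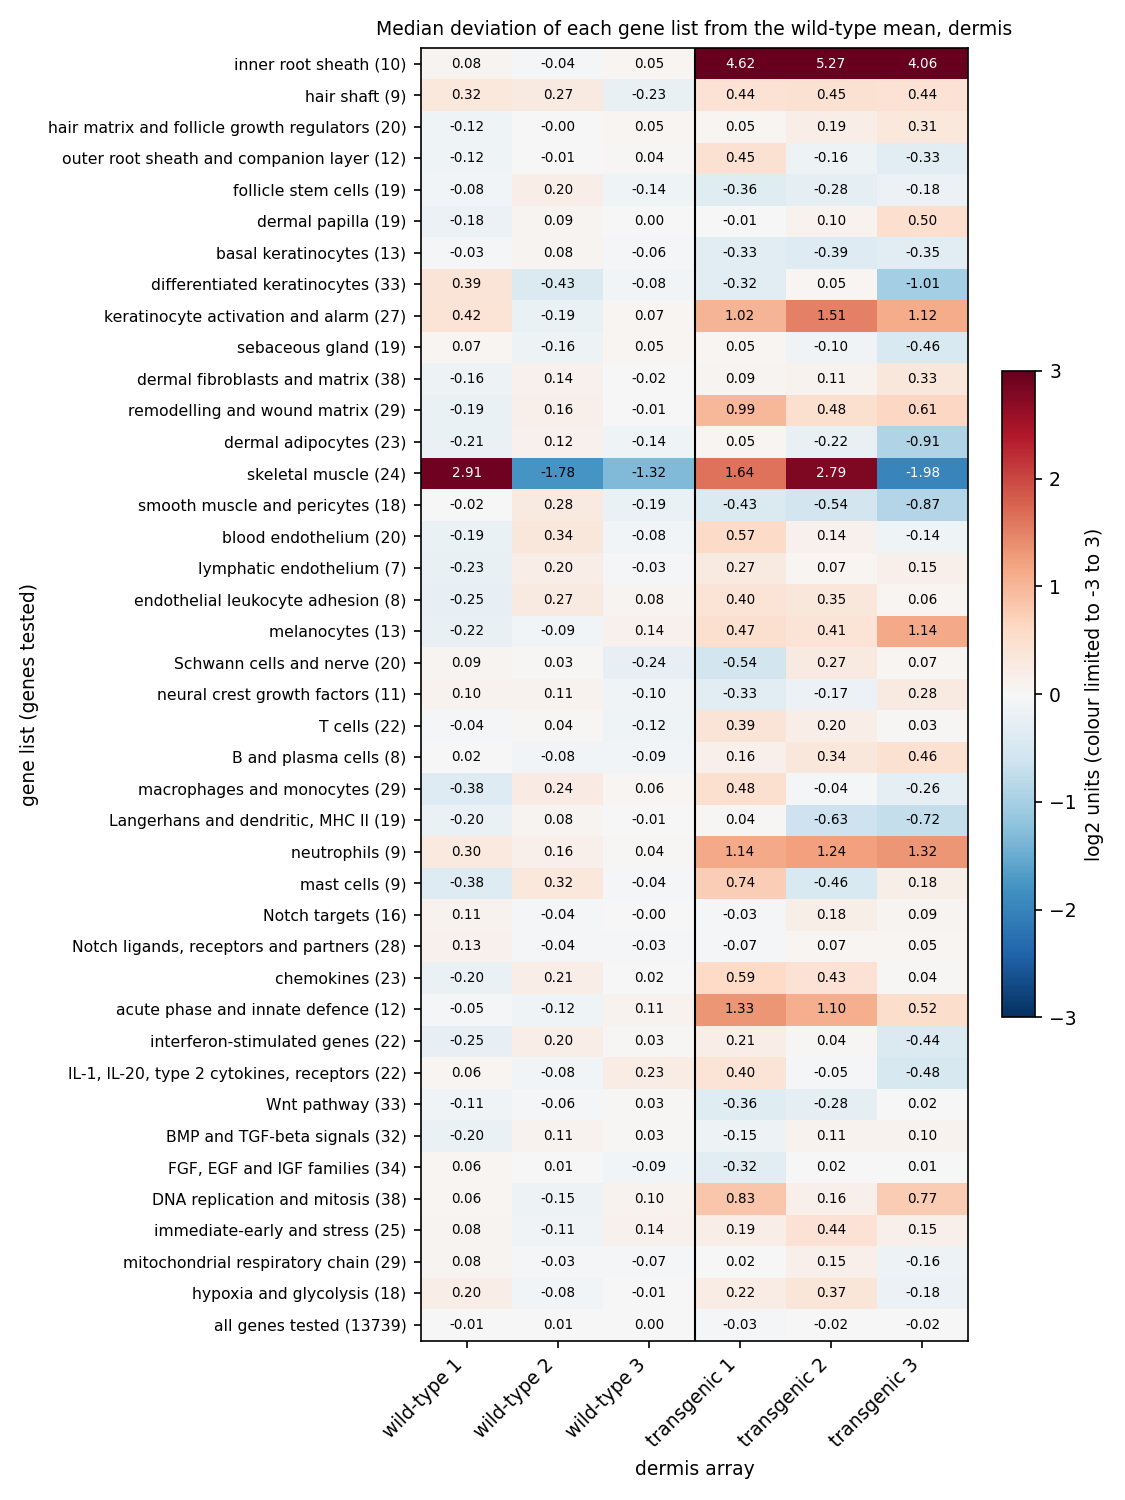
Median deviation of each gene list from the mean of the wild-type dermis arrays (log2), 1 column per dermis array and the number of tested genes in brackets. Some inner root sheath genes passed the filter partly through transgenic dermis arrays where they are high, so the high medians of that row support nothing. Tgm3 and Gata3 of that list lie lower on all 3 transgenic arrays. Skeletal muscle genes vary within both genotypes.

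Of the genes that keratinocytes switch on when activated, 1 was called. Gjb2, which codes for connexin 26, a gap junction protein, rose from 5.69, 5.52 and 5.99 to 8.87, 8.21 and 8.74. The difference of 2.87 ± 0.49 passed both tests (adjusted p = 0.0415 in the main test, 0.00885 in dermis alone) and the groups lay well apart. It was the only gene that did so in both.

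Sprr1b, a precursor of the cornified envelope, read 3.48, 1.79 and 2.68 against 6.47, 8.39 and 5.82 (4.24 ± 0.93, adjusted p = 0.212). S100a8 and S100a9, which together form calprotectin and are made by activated keratinocytes and by neutrophils, differed by 3.91 ± 1.32 (adjusted p = 0.797) and 2.35 ± 0.94 (adjusted p = 0.937). For S100a8 the values were 5.43, 4.67 and 3.01 against 6.98, 9.90 and 7.98, lowest among transgenic arrays on replicate 1. Krt16, a keratin of wounded epidermis, read 5.04, 4.88 and 5.12 against 8.27, 7.64 and 6.22, and Krt6a, its usual partner, 8.76, 9.0 and 9.02 against 10.01, 10.10 and 10.24. These 5 genes did not overlap between the groups, though none passed either test.

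Of the 27 tested genes of the activation list, 1 was called, and 8 were higher and 1 lower at an unadjusted p under 0.05. On all 3 transgenic arrays 10 were above and 1, Dmkn, below (3.91% and 5.33% of all genes). The other 16 overlapped, Krt17 at 0.04 and Sprr2i at -0.37 among them. The median difference was 1.11. In epidermis the same genes had a median of 2.71 and in whole skin of 2.34. The wild-type level of the list was 4.49 in dermis and 6.58 in epidermis.

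Genes of the ordinary differentiation programme lay lower or overlapped. Krt77, a keratin of suprabasal and sweat duct cells, read 12.13, 11.53 and 11.52 on wild-type and 10.78, 9.68 and 8.49 on transgenic arrays (-2.08 ± 0.40, adjusted p = 0.117). Without transgenic replicate 1, the highest of the 3, its difference was -2.64 (adjusted p = 0.000822). Krt78 differed by -1.48 ± 0.38 (adjusted p = 0.374). Over the 33 tested genes the median was -0.33, with 8 below and 0 above on all 3 transgenic arrays and 0 called (10 lower and 1 higher at an unadjusted p under 0.05). Flg, the filaggrin precursor, went the other way at 1.37, with overlap. The median deviation was -0.32, 0.05 and -1.01 on the 3 transgenic arrays, so it was replicate 3 that lay lowest.

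Mt4, a metallothionein of stratified epithelia, fell from 8.99, 8.23 and 7.86 to 6.19, 6.22 and 6.21. The 3 transgenic values were almost the same and all below the wild-type values, at -2.15 ± 0.29 (adjusted p = 0.0102, dermis alone 0.108). Basal keratinocyte genes had a median difference of -0.44 over 13 genes, 5 of them below and 0 above on all 3 transgenic arrays (5.33% and 3.91% of all genes). In the main test 0 of them were called, with 4 lower and 0 higher at an unadjusted p under 0.05. Col17a1, a hemidesmosome collagen, read 11.29, 11.21 and 10.73 against 9.78, 10.70 and 10.45, at -0.77 ± 0.26 (adjusted p = 0.788).

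Il20ra, a receptor chain for the interleukin-20 family that keratinocytes carry, fell from 6.05, 5.76 and 6.62 to 3.84, 3.27 and 1.13. The groups did not overlap, and replicate 3 was the lowest. The difference was -3.40 ± 0.52 (adjusted p = 0.0186, dermis alone 0.329). Its partner chain Il20rb read 6.90, 6.75 and 7.21 against 6.45, 5.51 and 6.24 (-0.89 ± 0.40, adjusted p = 0.970). Of the 22 tested genes for interleukin-1, interleukin-20 and type 2 cytokines and receptors, Il20ra was the 1 called. Tslp, an epithelial cytokine of type 2 inflammation that was higher in transgenic epidermis by 2.5 (adjusted p = 0.00504), differed by 0.19 ± 0.47 in dermis and overlapped.

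Chodl, which codes for chondrolectin, a membrane lectin, rose from 2.0, 3.26 and 2.37 to 5.95, 6.14 and 6.34. The 3 transgenic arrays lay close together, and the difference of 3.60 ± 0.61 passed the main test (adjusted p = 0.0415, dermis alone 0.0641). The wild-type means of Chodl were dim, 2.54 in dermis, 3.19 in epidermis and 2.95 in whole skin, against the filter level of 3.15. The gene thus reached the test partly through the transgenic arrays where it is high. With no filter on low values limma gave adjusted p = 0.0343. In epidermis the gene differed by 0.54 (adjusted p = 0.653) and in whole skin by 2.08 (adjusted p = 0.000127). The difference between the effects in dermis and epidermis was not called.

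In the acute-phase list, 2 genes were called by the dermis arrays alone. Saa3, an acute-phase serum amyloid made locally by fibroblasts, adipocytes and macrophages, read 5.13, 3.65 and 1.99 on wild-type and 9.63, 11.21 and 11.38 on transgenic arrays. Every transgenic value exceeded every wild-type value by a wide margin, and the difference was 7.15 (adjusted p = 0.00885 in dermis alone, 0.374 in the main test with standard error 1.81). Serpina3n, an inhibitor of serine proteases, went from 6.48, 6.66 and 6.47 to 8.61, 8.93 and 9.56 (2.49, adjusted p = 0.0277 in dermis alone, 0.169 in the main test). The whole list of 12 genes had a median of 1.0, with 4 above on all 3 transgenic arrays, 2 called in dermis alone and none in the main test (3 higher at an unadjusted p under 0.05). The other 8 overlapped, and Orm1, an acute-phase plasma protein, differed by -1.16.

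Tnc encodes tenascin C, a matrix glycoprotein laid down in wounds and around growing follicles. Its values were 6.5, 6.95 and 6.81 against 9.53, 9.03 and 8.73, without overlap, a difference of 2.34 (adjusted p = 0.0314 in dermis alone, 0.728 in the main test), and a second probe set gave 3.25. Other genes of remodelling matrix were higher on all 3 transgenic arrays without being called. Lrrc15, a membrane protein of activated fibroblasts, read 7.43, 6.53 and 6.66 against 9.36, 8.60 and 10.40 (2.58 ± 0.88, adjusted p = 0.821), and Timp1, an inhibitor of matrix metalloproteinases, 3.52, 3.22 and 0.24 against 5.94, 5.34 and 6.27 (3.53 ± 1.07, adjusted p = 0.694). Adam12 and Cthrc1 differed by 1.38 and 1.67. The wild-type mean of Timp1 was 2.33 in dermis, 3.07 in epidermis and 2.91 in whole skin, below the filter level of 3.15. Timp1 thus entered the test through the transgenic arrays where it is high.

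Of the 29 tested genes of remodelling matrix, 10 were above and 2 below on all 3 transgenic arrays (3.91% and 5.33% of all genes). The median difference was 0.49. In the main test 0 were called, with 7 higher and 0 lower at an unadjusted p under 0.05. Transgenic replicate 1 had the highest median deviation here, 0.99, against 0.48 and 0.61. The 2 below were Acta2, smooth muscle actin, at -0.83 and Thbs2, a thrombospondin, at -0.24. Structural genes of fibroblasts and resting matrix had a median of 0.11 over 38, with 8 above and 1 below on all 3 transgenic arrays and 0 called (6 higher and 0 lower at an unadjusted p under 0.05). Col6a1, a chain of collagen VI, read 9.49, 9.89 and 9.36 against 10.21, 10.52 and 11.03 (1.01 ± 0.39, adjusted p = 0.923), and Col6a2, another chain, overlapped at 1.26 ± 0.40 (adjusted p = 0.737, 0.00876 without transgenic replicate 1). Col1a1 and Col3a1, the main fibrillar collagens, overlapped at 0.28 ± 0.37 and 0.05 ± 0.36. Pdgfra, a receptor that marks fibroblasts, read 8.60, 8.79 and 8.90 against 9.5, 9.43 and 9.97 (0.87 ± 0.30, adjusted p = 0.821).

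**Figure D3:**
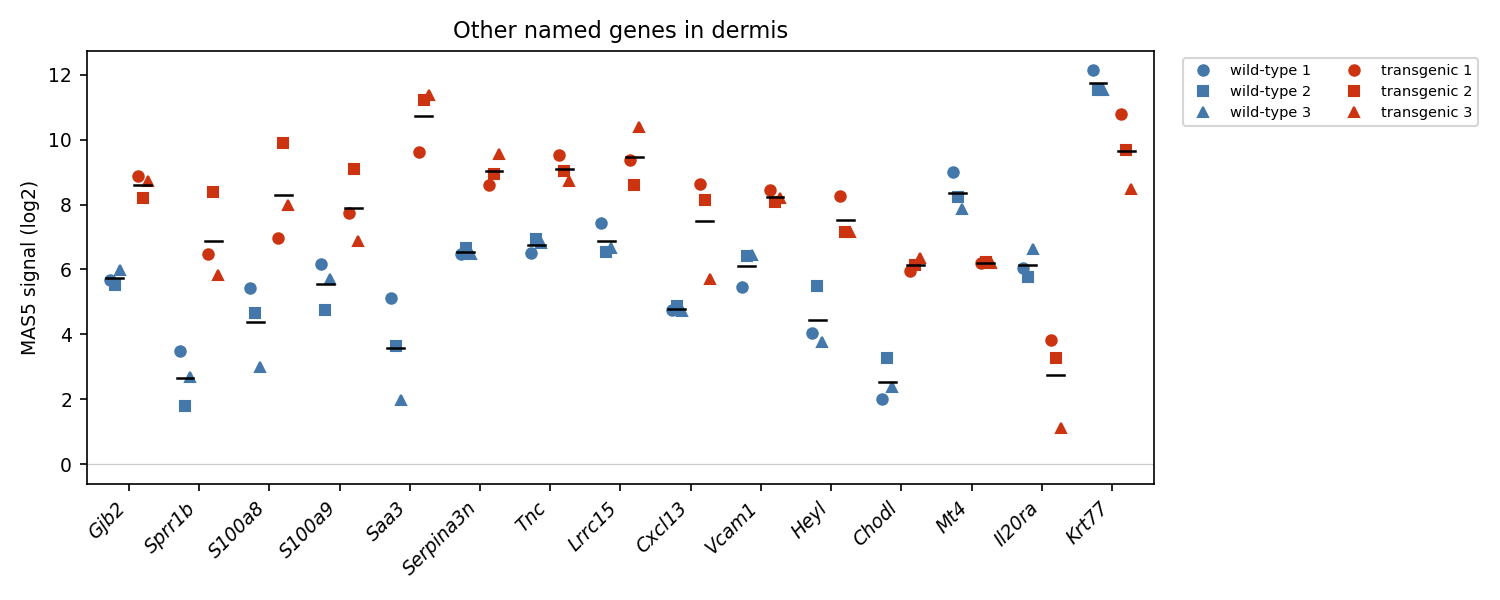
MAS5 signal (log2) of 15 further named genes on each dermis array, blue for wild type and red for transgenic, with a bar at each group mean. None of these genes overlaps between the groups. Mt4, Il20ra and Krt77 are lower in transgenic dermis and the other 12 are higher.

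No chemokine or vascular adhesion gene was called in the main test or with the dermis arrays alone, though some did not overlap between the groups. Without array weights limma called Vcam1 (adjusted p = 0.00163) and Cxcl13 (adjusted p = 0.0336). Vcam1, which lets leukocytes adhere to endothelium, read 5.47, 6.43 and 6.46 against 8.46, 8.08 and 8.19. The difference was 2.12 ± 0.38 (adjusted p = 0.0708), its other 2 probe sets gave -0.11 and 1.26, and it was 1.69 in whole skin (adjusted p = 1.01e-05). Cxcl13, which attracts B cells, read 4.75, 4.88 and 4.71 against 8.62, 8.15 and 5.72 (2.72 ± 0.59, adjusted p = 0.207), lowest of the transgenic arrays on replicate 3. Cxcl1, which attracts neutrophils, showed the reverse, with 7.06 on transgenic replicate 1 and 10.37 and 9.95 on the others (3.48 ± 1.11, adjusted p = 0.743). Cxcl12, a chemokine of stroma, read 7.98, 7.90 and 8.36 against 9.72, 9.35 and 9.58, but its other 2 probe sets gave -0.85 and -0.33. Selp, the endothelial selectin, read 5.50, 4.66 and 3.97 against 6.07, 6.57 and 6.57 (1.69 ± 0.90, adjusted p = 0.999), with 1.21 and 1.49 from its other 2 probe sets. These 5 genes were separated between groups. In the main test 0 of 8 adhesion genes were called (1 higher and 1 lower at an unadjusted p under 0.05). The same test called 0 of 23 chemokines (4 higher and 1 lower at an unadjusted p under 0.05).

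Leukocyte markers gave a divided picture. Of 9 tested neutrophil genes the median was 1.03, but the 2 furthest from 0 were S100a8 and S100a9, which keratinocytes also make. Trem1, a receptor of myeloid cells, read 3.32, 2.86 and 0.68 against 3.54, 3.52 and 4.68 (1.63 ± 0.83), the third gene above on all 3 transgenic arrays. The receptor Cxcr2 overlapped at 1.03 and Mpo, a granule enzyme, at 0.67, and the decoy receptor Il1r2 at -1.04. Genes of macrophages and monocytes had a median of 0.01 over 29, and those of T cells 0.11 over 22.

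Among T cell genes Cd4 read 4.10, 6.06 and 5.22 against 6.07, 6.87 and 7.76 (1.77 ± 0.84, adjusted p = 0.977), while Cd3g, a chain of the receptor complex, read 6.75, 6.23 and 6.68 against 6.17, 5.17 and 3.63 (-1.56 ± 0.56, adjusted p = 0.865). Cd4 and Cd3g thus lay in opposite directions. A second probe set of Cd4 gave 2.80. Of the 22 T cell genes, 5 lay above and 3 below on all 3 transgenic arrays (3.91% and 5.33% of all genes). Foxp3, Cd8a and Icos were also above, at 0.53, 0.77 and 0.76, Gata3 was also below, and Cd3e overlapped at -0.20. Cd74, the chain that guides MHC class II molecules, read 10.43, 11.40 and 10.68 against 10.37, 9.44 and 8.76 (-1.31 ± 0.37, adjusted p = 0.541). Here transgenic replicate 1 was close to the wild-type arrays, and without it the difference was -1.73 (adjusted p = 0.0077). H2-Ab1 and H2-Eb1, chains of MHC class II, went from -1.04 to -1.34 and from -0.90 to -1.2 when that array was left out. These 3 come from a list of 19 tested genes of Langerhans and dendritic cells and MHC class II. Its median was -0.31, its members ran from -1.95 to 0.89, and 0 were called in the main test. On all 3 transgenic arrays 2 were below and 0 above (5 lower and 0 higher at an unadjusted p under 0.05).

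In the Notch pathway itself, Heyl stood apart. It encodes a transcriptional repressor that Notch induces in several tissues, vessel walls among them. Its values were 4.03, 5.49 and 3.76 on wild-type and 8.27, 7.14 and 7.17 on transgenic arrays, with no overlap. The difference was 3.10 ± 0.69 (adjusted p = 0.217, dermis alone 0.169), and 2 other probe sets gave 2.35 and 2.74. In epidermis it was 2.72 (adjusted p = 0.0284) and in whole skin 2.40 (adjusted p = 9.84e-05).

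Other targets differed in both directions. Hes1, Hey1, Nrarp and Jag1 differed by -0.00, 0.08, 0.26 and 0.05, and all 4 overlapped. Hey2, a relative of Heyl, read 5.21, 4.66 and 5.52 against 5.49, 6.25 and 7.25, at 1.2 ± 0.76. Lfng, a glycosyltransferase that modifies Notch receptors, differed by -0.98 ± 0.40 (adjusted p = 0.937). Gata3, also on the target list, was given above at -1.69, and Dtx1 and Ccnd1 were above on all 3 transgenic arrays at 0.57 and 0.37. Over 16 targets the median was 0.09, with 0 called in the main test (1 higher and 2 lower at an unadjusted p under 0.05). Without array weights limma called Gata3 (adjusted p = 0.0117).

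Ligands and receptors were close to even between the groups, with a median of 0.00 over 28 genes. The ligand Dll1 read 8.23, 7.79 and 8.33 against 7.46, 7.20 and 6.92, below on all 3 transgenic arrays (-0.93 ± 0.24, adjusted p = 0.386). In epidermis Dll1 was lower by a difference of -2.42 (adjusted p = 2.37e-05) and in whole skin of -1.12 (adjusted p = 7.18e-06). Notch1 overlapped at -0.07 ± 0.34. No source used here says whether its probe sets read the transgene, so it does not check the genotype labels.

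The Wnt pathway, which acts beside Notch in follicle growth, held 2 of the larger lower values. The ligand Wnt3 read 4.51, 4.71 and 5.31 against 2.72, 0.77 and -1.45 (-4.17 ± 0.85, adjusted p = 0.169), and the receptor Fzd10 5.47, 4.94 and 4.17 against 3.16, 1.19 and 2.70 (-2.51 ± 0.61, adjusted p = 0.372). Both reach the dim end of the scale on transgenic arrays, and a second probe set of Fzd10 gave -0.10. Axin2, a target and inhibitor of the pathway, read 8.07, 8.59 and 8.34 against 7.76, 7.64 and 6.75 (-0.95 ± 0.31, adjusted p = 0.765). Of 33 tested genes 7 were below and 2 above on all 3 transgenic arrays (5.33% and 3.91% of all genes), and the median was -0.28. In the main test 0 of them were called, with 5 lower and 1 higher at an unadjusted p under 0.05.

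No gene of DNA replication and mitosis was called in the main test. Of 38 tested, 13 lay above on all 3 transgenic arrays and 0 below, 25 overlapped, and 10 were higher and 0 lower at an unadjusted p under 0.05. Rrm2, a subunit of the enzyme that makes deoxynucleotides, read 8.96, 8.36 and 8.81 against 9.44, 9.84 and 10.89 (1.35 ± 0.34, adjusted p = 0.374). Mcm5, part of the replicative helicase, read 9.22, 9.0 and 9.05 against 9.34, 10.27 and 11.09 (1.14 ± 0.35, adjusted p = 0.694). Both were highest on transgenic replicate 3, and on replicate 1 Mcm5 was barely above wild type. The other 2 probe sets of Mcm5 gave -0.03 and 0.14, and those of Rrm2 0.67 and 1.21. Mki67, the proliferation marker, overlapped (10.44, 10.02 and 10.09 against 10.35, 11.05 and 11.65).

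For the whole list the median difference was 0.57, and by array the median deviation was 0.83, 0.16 and 0.77. Single members and the list median therefore ranked the transgenic arrays differently. In epidermis the median of these genes was 0.36 and in whole skin 0.42.

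**Figure D4:**
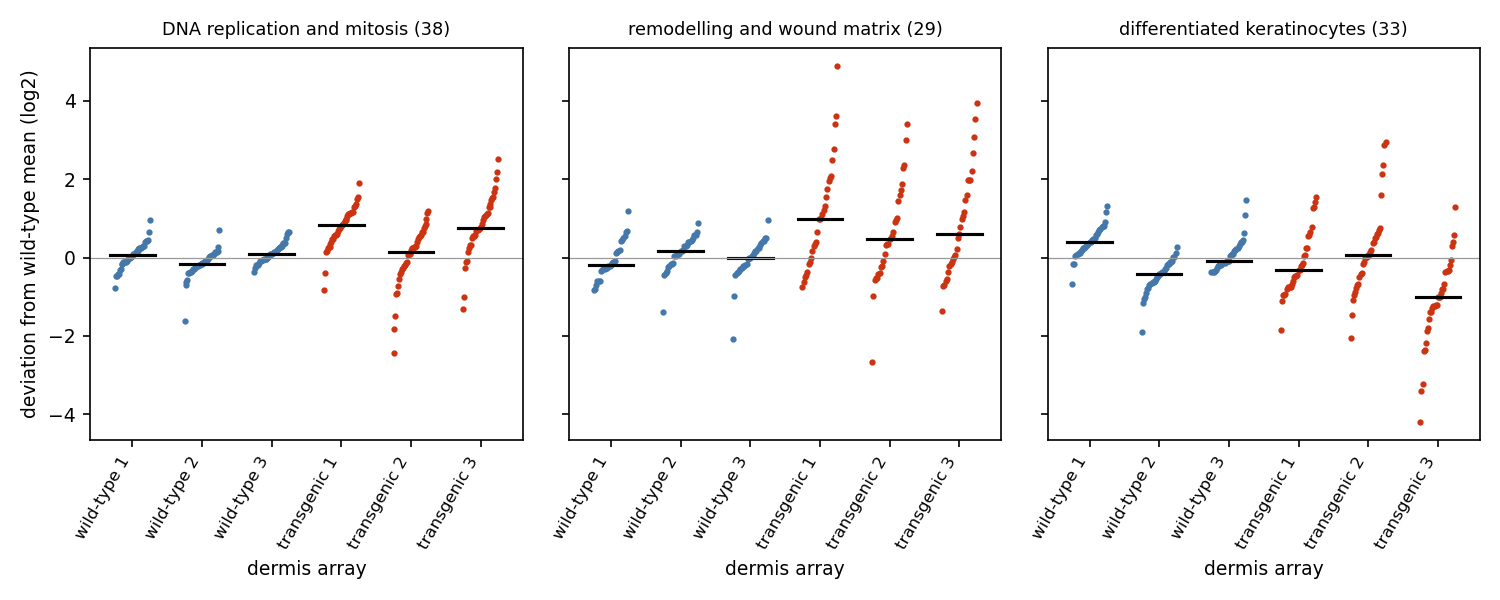
Deviation of each tested gene from its wild-type mean (log2), sorted within each dermis array, for 3 gene lists with the number of genes in brackets and a bar at the median. Replication and matrix genes are shifted up on the transgenic arrays, least on replicate 2 in both lists, and differentiation genes are lowest on transgenic replicate 3.

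Pigment and nerve genes were not called. In the melanocyte list, Tyrp1, an enzyme of melanin synthesis, read 4.94, 5.36 and 6.05 against 7.78, 6.60 and 7.16 (1.73 ± 1.06, adjusted p = 0.999), and Mlana, a melanosome protein, 4.29, 3.49 and 4.41 against 6.30, 5.65 and 5.77. Both were above on all 3 transgenic arrays. Mitf, the master regulator of the lineage, and Sox10, shared with Schwann cells, overlapped at -0.38 and 0.21. The median was 0.62 over 13 melanocyte genes and -0.01 over 20 genes of Schwann cells and nerve. Kitl, the ligand of the Kit receptor on melanocytes and mast cells, read 6.81, 6.61 and 6.71 against 7.01, 7.10 and 7.32 (0.43 ± 0.31). Its other 3 probe sets ranged from -0.38 to 0.17. Sema3c, a guidance factor, was below on all 3 transgenic arrays at -0.84 ± 0.24 (adjusted p = 0.538).

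Muscle and fat genes varied among the arrays of each genotype. The 24 tested genes of skeletal muscle, which forms a thin sheet beneath mouse skin, had median deviations of 2.91, -1.78 and -1.32 on wild-type and 1.64, 2.79 and -1.98 on transgenic arrays. Acta1, skeletal actin, read 10.50, 3.73 and 4.78 against 8.72, 10.16 and 1.38. High and low arrays thus occurred in both groups, and 0 genes of the list were separated by genotype. Adipocyte genes were low on transgenic replicate 3, with a median deviation of -0.91 against 0.05 and -0.22 on replicates 1 and 2. Adipoq, the adipocyte hormone adiponectin, read 8.12, 8.78 and 8.66 against 9.16, 7.72 and 5.41. Genes of smooth muscle and pericytes had a median of -0.73 over 18, with 6 below on all 3 transgenic arrays, Acta2 (10.77, 11.27 and 10.59 against 10.25, 10.35 and 9.52) and Myh11, smooth muscle myosin, among them. A second probe set of Myh11 gave 0.19. In the same list 2 were above on all 3, Mcam at 0.55 and Rgs5, a marker of pericytes, which read 9.72, 9.54 and 9.65 against 9.76, 10.90 and 11.13 (0.96 ± 0.49). Of these 3 lists, 0 genes were called (0 of the muscle genes, 2 of the adipocyte genes and 0 of the smooth muscle genes at an unadjusted p under 0.05).

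Leaving out transgenic replicate 1 changed the call of many genes named here. All 5 genes of the main test and 4 of the 9 from the dermis arrays alone were among the 467 called without it. Of those 467 genes, 111 were separated between the groups on the 6 arrays and 356 overlapped. Replicate 1 lay on the other side of the wild-type mean from the remaining transgenic arrays for 285, and on the same side for 182. It lay within the range of the wild-type arrays for 175. A call without replicate 1 thus does not show that all transgenic arrays differed in the same direction. Of genes not called in the main test with all arrays, the adjusted p without it was 0.0268 for Saa3, 0.0309 for Tchh, 0.00821 for Serpina3n, 0.0105 for Vcam1, 0.0439 for Cxcl13, 0.021 for Cxcl1, 0.017 for Sprr1b and 0.0341 for Heyl, all higher in transgenic dermis. Among replication genes it was 0.00584 for Mcm5, 0.00967 for Rrm2 and 0.00911 for Mki67. Among genes lower in transgenic dermis it was 0.0017 for Wnt3, 0.0139 for Fzd10, 0.0447 for Axin2, 0.022 for Dll1, 0.0159 for Lfng, 0.0303 for Gata3, 0.00792 for Dmkn, 0.025 for Cd3g, 0.0157 for H2-Ab1 and 0.0139 for H2-Eb1. Krt25, Krt27, Krt71, Prr9 and Tnc did not pass without it (adjusted p = 0.276, 0.0543, 0.163, 0.077 and 0.0886).

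The genotype effect in dermis was then set against the effect in the other tissues. All 13 genes called in either dermal test had the same sign in whole skin. How often the sign is shared over all genes was not counted, so this only describes the 13. In whole skin 8 of them passed the test (4.32% of all genes did, 2.60% higher and 1.73% lower). In epidermis 5 passed (3.70% of all genes, 2.29% higher and 1.42% lower). Of the 5 genes of the main dermal test, 5 passed in whole skin and 4 in epidermis, Chodl being the exception. No gene passed the test of the difference between the effects in dermis and whole skin in limma (456 at an unadjusted p under 0.05, 3.32%), and 0 passed without array weights.

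Between dermis and epidermis the effect itself differed for 11 genes (0.0801%), 7 with the higher value in dermis (0.0509%) and 4 with the lower (0.0291%), beside 9.05% at an unadjusted p under 0.05. They were mostly genes with a large epidermal effect and little in dermis. Krt15, a keratin of basal and bulge cells, read 11.80, 12.15 and 11.62 against 11.40, 11.39 and 11.67 in dermis, where the groups overlapped (-0.37 ± 0.34), but was lower by a difference of -3.66 in epidermis (adjusted p = 2.34e-05). Lgr6, a receptor of epithelial stem cells, behaved likewise, at -0.49 ± 0.40 in dermis and -3.68 in epidermis. Igfbp3, which binds insulin-like growth factors, differed by -0.44 in dermis and -3.90 in epidermis. Acta2 differed in the other direction, at -0.83 in dermis and 2.58 in epidermis. Without wild-type replicate 1, wild-type replicate 3 or transgenic replicate 2 none of the 11 passed in limma (1143, 770 and 878 genes at an unadjusted p under 0.05), 2 passed without wild-type replicate 2 or transgenic replicate 3, and without transgenic replicate 1 there were 591.

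**Figure D5:**
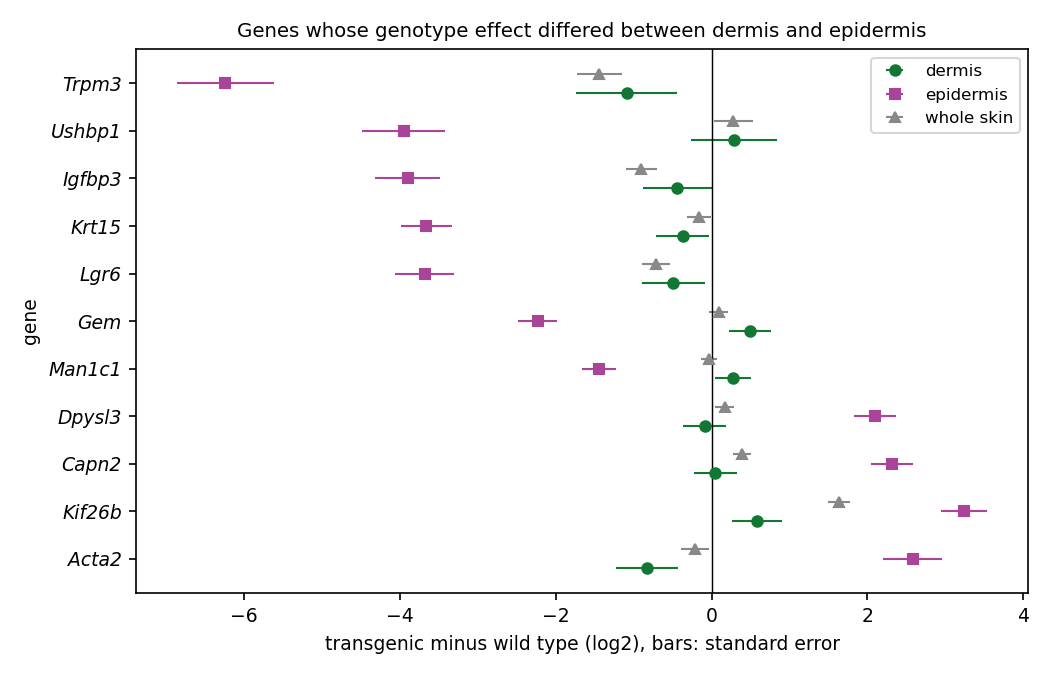
Genotype effect, transgenic minus wild type (log2) with its standard error, in dermis, epidermis and whole skin for the 11 genes whose effect differed between dermis and epidermis. The dermal effects lie between -1.09 and 0.58, and the epidermal effects lie farther from 0 for each gene.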

How the data were processed

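Expression was measured on 18 Affymetrix mouse arrays. The submitters' processing notes name MAS5, with no version; the authors deposited 1 table of 45037 probe sets, read as log2 signal because values set back to the linear scale gave trimmed means of 98.92 to 99.52 on every array. Per the labels' protocols, amplification used WT Ovation Pico, a kit made for little RNA. Dim MAS5 values scatter widely once in log2, and the number of arrays limits precision. Of the probe sets, 34945 had 1 symbol, 932 several and 9160 none here. The probe set with the highest mean stood for each gene, and a gene was tested where that mean exceeded 3.15, the 30th percentile over probe sets.

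The main test was limma 3.58.1 in R 4.3.3 on all 18 arrays, a mean per group, array weights by tissue (0.565 dermis, 0.617 epidermis, 2.866 whole skin, since the median standard deviations within groups were 0.413, 0.411 and 0.180), a trended prior, Benjamini-Hochberg adjustment and a threshold of 0.05. The naming rule took called genes (up to 20 each way), those called by dermis arrays alone, fixed anchor genes, and up to 4 genes of each list with the smallest p. Some of these anchor and list genes are left out of the text, a choice made with their values known. Other genes named were chosen after their values were seen. The comparison, lists and rule were chosen with earlier results of these data known. Alternatives changed the weights, arrays, scaling, filter, probe sets, left-out arrays and a replicate term.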

Additional observations from a re-analysis of the deposited data

Results flagged for a closer look

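The genotype effect differed between dermis and epidermis, by limma's test of the difference, for 11 genes. The difference, dermal effect minus epidermal effect on the log2 scale, was 5.14 for Trpm3, 4.24 for Ushbp1, 3.45 for Igfbp3, 3.29 for Krt15, 3.19 for Lgr6, 2.72 for Gem and 1.71 for Man1c1. It was -3.42 for Acta2, -2.66 for Kif26b, -2.27 for Capn2 and -2.19 for Dpysl3. Adjusted p-values ran from 0.0111 for Gem to 0.043 for Man1c1 and Ushbp1. Of these genes, Trpm3 and Ushbp1 read near 0 in transgenic epidermis (0.03 and 1.03 on average), at the dim end of the scale. Acta2 has 2 other probe sets, whose dermal differences were -2.61 and -0.22.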

How the results depend on the processing

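The count of 5 genes in dermis became 38 without array weights, 9 with the dermis arrays alone, 3 after quantile normalization, 8 with 16 added on the linear scale and 1091 with the dermis arrays alone and a weight for each array, a fit in which transgenic replicate 2 dominated and that converged poorly. It lay between 4 and 6 with a common 75th percentile, no filter, a filter on the dermis mean, the mean of all probe sets or every probe set on its own. Leaving out 1 dermis array gave 0 to 467. The 11 genes of the difference from epidermis became 42 without weights, 3 with the arrays of the 2 tissues alone, 7 with a common 75th percentile, 17 with no filter and 4 when each probe set was tested, and 0 to 591 when 1 array was left out. The 0 genes of the difference from whole skin (456 at an unadjusted p under 0.05 in limma) stayed 0 in the other fits, and were 0 to 70 when 1 array was left out. The cause of these shifts was not tested.

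Deviations of same-numbered dermis arrays of the 2 genotypes correlated at -0.32, -0.10 and -0.17. Between dermis and epidermis they were 0.02, -0.07 and 0.00 in wild type and 0.40, 0.18 and -0.04 in transgenic mice, and between dermis and whole skin 0.24, 0.32 and 0.04, and 0.15, 0.16 and -0.05. Arrays of different number reached at most 0.33 between the genotypes in dermis. Between dermis and epidermis their highest value was 0.23 in wild type and 0.25 in transgenic mice. Between dermis and whole skin it was 0.20 and 0.08. In none of these 5 comparisons did all 3 same-numbered pairs exceed 0.1, so the numbers were not taken to pair samples. Some same-numbered values exceeded every one of different number, so pairing between tissues was not settled. With a replicate block the counts were 2 in dermis and 4 for the difference from epidermis, and 7 in dermis with the dermis arrays alone. No named gene with a difference of 1 or more changed sign in any of 1434 pairs of gene and setting. Several settings, such as no array weights, the dermis arrays alone or no filter, leave the difference itself as it is. The sign could not change in those pairs, so the count is no measure of robustness. Among single genes in dermis, 36 pairs lost a call and 151 gained one, out of 3249.

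Dim values limit the sizes: with 16 added on the linear scale the differences of Krt25, Krt27, Krt71, Krt73, Prr9 and Saa3 were 5.86, 5.01, 3.21, 2.11, 3.52 and 5.81. Those of Chodl, Il20ra and Wnt3 were 1.97, -1.85 and -1.27. The median over all genes was -0.047 as deposited, -0.013 after quantile normalization and 0.015 after alignment of the 75th percentile.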

Other observations

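Without array weights limma called 38 genes in dermis, 16 higher and 22 lower (0.277% of genes), which include the 5 of the main test and 7 of the 9 from the dermis arrays alone. The genes below were chosen from them after their values were seen, and none passes the main test. Akr1c18 and Akr1c19, both aldo-keto reductases that act on steroids and other carbonyl compounds, were lower on all 3 transgenic arrays. Akr1c18 read 9.58, 10.37 and 10.27 against 8.73, 7.10 and 4.72 (-3.22 ± 0.67, adjusted p = 0.169), and Akr1c19 6.10, 6.07 and 5.96 against 3.48, 3.43 and 4.00 (-2.41 ± 0.55, adjusted p = 0.238). For Akr1c18 the 3 transgenic arrays were spread over about 4 units, while those of Akr1c19 lay together.

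Slc13a3, a carrier of dicarboxylates, read 5.86, 6.05 and 5.44 against 7.62, 8.39 and 9.69 (2.78 ± 0.56, adjusted p = 0.169) and was higher in whole skin by 2.53 (adjusted p = 8.75e-06), with 0.57 in epidermis (adjusted p = 0.597). Its other 3 probe sets ranged from -1.23 to 2.0. Gpr65, a proton-sensing receptor of leukocytes, read 5.15, 5.23 and 5.48 against 7.38, 6.77 and 6.78 (1.69 ± 0.37, adjusted p = 0.207). Trgv4, a variable segment of the gamma chain of the T cell receptor, was lower on all 3 transgenic arrays, at 6.48, 5.33 and 6.24 against 4.57, 3.62 and 3.58 (-2.09 ± 0.53, adjusted p = 0.374). Plxna2, a semaphorin receptor, read 8.17, 8.07 and 7.57 against 6.54, 6.39 and 6.76 (-1.37 ± 0.30, adjusted p = 0.207) and differed by 0.52 in epidermis, where it was not called.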
